A study of Rattus norvegicus with 6 samples.

Results

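The genes described here are 10 autophagy genes, namely 7 that help mark cargo for autophagy, most of them receptors, and 3 of the LC3 and GABARAP family. They were taken by gene name from the deposited count tables. The 10 names, each on a single row, are among 18077 rows. They are the membrane-anchored mitophagy receptor genes Bnip3, Bnip3l and Fundc1, the ubiquitin-binding receptor genes Sqstm1, Optn and Nbr1, the mitophagy kinase gene Pink1, and Map1lc3a, Map1lc3b and Gabarapl1. The RNA came from cultures labelled neonatal rat cardiomyocytes, prepared from the hearts of pups aged 1 to 3 days. All cultures, controls included, were given the saturated fatty acid palmitic acid at 500 µM for 24 h and an adenovirus. They were harvested after 48 h, and the labels give no sex, strain or promoter of the vectors. The 3 control libraries are labelled Ad-GFP, for a virus with green fluorescent protein, and the 3 others Ad-RNF128, for a virus meant to overexpress the ubiquitin ligase RNF128. The design asks which genes change with RNF128.

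Autophagy encloses cell contents in a double membrane that then fuses with the lysosome. Proteins of the LC3 and GABARAP family, the mammalian relatives of yeast Atg8, are joined to lipid in that membrane. Autophagy receptors hold cargo at one end and LC3 or GABARAP proteins at the other, and some of them, such as p62, are themselves degraded with the cargo. In heart muscle, which is rich in mitochondria, the removal of damaged mitochondria by this route (mitophagy) is much studied. Transcript levels do not measure the flow of cargo through this pathway.

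The promoters are shown first, as the sequence next to each start site. The counts below do not measure their activity. The RefSeq table (build GRCr8, not the build mRatBN7.2 of the counts) held a promoter for 7 of the 10 genes, with none matched for Bnip3l, Fundc1 and Map1lc3a. The 250 bases before the start site of 4 of them follow, with matches to any of the searched motifs in capitals. The first is Bnip3, the gene of the 10 with the largest rise (chr1:203154963-203155212, minus strand). Pink1 (chr5:155825951-155826200, minus strand) holds as many matches to the hypoxia response element core, all of them within the E-box matches described below. A link between motifs and changes was not tested. Optn (chr17:78118619-78118868, plus strand) and Nbr1 (chr10:86978299-86978548, plus strand) hold a motif of interferon-stimulated genes.
Bnip3: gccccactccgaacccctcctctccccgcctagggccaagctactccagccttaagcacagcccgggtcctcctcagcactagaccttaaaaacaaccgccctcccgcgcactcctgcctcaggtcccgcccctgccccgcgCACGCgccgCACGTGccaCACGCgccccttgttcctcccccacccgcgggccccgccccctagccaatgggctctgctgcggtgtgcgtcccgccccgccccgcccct
Pink1: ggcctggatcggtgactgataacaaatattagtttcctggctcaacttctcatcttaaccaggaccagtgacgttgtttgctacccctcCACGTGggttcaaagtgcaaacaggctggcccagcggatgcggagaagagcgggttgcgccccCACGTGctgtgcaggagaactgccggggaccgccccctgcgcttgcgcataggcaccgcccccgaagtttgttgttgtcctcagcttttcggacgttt
Optn: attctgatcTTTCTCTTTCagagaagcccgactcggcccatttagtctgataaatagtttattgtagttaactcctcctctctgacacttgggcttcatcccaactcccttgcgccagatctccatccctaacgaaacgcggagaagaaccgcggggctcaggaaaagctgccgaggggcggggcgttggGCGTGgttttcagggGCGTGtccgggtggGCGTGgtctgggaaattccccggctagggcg
Nbr1: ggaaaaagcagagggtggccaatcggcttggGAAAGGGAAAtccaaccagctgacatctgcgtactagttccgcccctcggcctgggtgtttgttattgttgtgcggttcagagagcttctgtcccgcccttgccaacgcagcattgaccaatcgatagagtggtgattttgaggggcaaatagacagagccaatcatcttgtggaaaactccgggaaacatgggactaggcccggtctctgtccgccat

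A set of 4 motifs was searched on both strands. The hypoxia response element core, ACGTG or GCGTG, had 4 matches in Bnip3, 4 in Pink1, 3 in Optn and 1 in Map1lc3b, and it occurs in 36.7% of 33469 promoters of the same length. A match to the E-box CACGTG contains that core on each strand and so counts as 2 of its matches. The E-box was in Bnip3 and in Pink1, and in 5.59% of all promoters. The interferon-stimulated response element core, GAAA, any 2 bases and GAAA, was in Optn and in Nbr1, and in 3.41% of all promoters. The antioxidant response element core, TGACNNNGC, was in 0 of the 7 windows and in 10.1% of all promoters. The Sqstm1 and Gabarapl1 windows held none of the searched letters. A match is a description of the letters, not evidence of binding.

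Before the results, 3 features of the libraries bear on every value. The rat gene Rnf128 had 0 to 2 counts in the Ad-GFP libraries and 1 to 3 in the Ad-RNF128 libraries, so it does not bear out the label, whereas Rnf157, another RING ligase gene, was at 22.3 to 40.4 counts per 1000000 counts of the library (CPM) in Ad-GFP and 1923 to 2553 in Ad-RNF128. Reads of a virus insert would count for Rnf128 only if they aligned to the rat gene, so expression of the insert was not tested. Directions below are therefore for the libraries labelled Ad-RNF128. Ad-GFP replicate 1 stood apart, since its rank correlation with each of the other libraries lay between 0.776 and 0.818, and the log2 change of each autophagy gene named below is given with and without it. The cardiomyocyte label was only partly borne out: 8 of the 9 marker genes examined (Myh6 and Actc1 among them, all but Tnnt2) never exceeded 25 CPM in any library, and in Ad-RNF128 replicate 3 those other than Ttn were at or below 0.312 CPM. Tnnt2 was at 342.3 and 350.4 CPM in Ad-GFP replicates 2 and 3 and at 57.4, 42.3 and 34.0 CPM in Ad-RNF128 replicates 1 to 3. Myh6, at 13.4 and 11.1 CPM in those controls, was at 14.3 and 10.8 CPM in Ad-RNF128 replicates 1 and 2. Actc1 was at 13.9 and 9.84 CPM against 17.5 and 11.1 CPM. In the test against those controls described below, 2 of the 9 markers were called lower and 0 higher. Summed CPM of the 9 markers, mostly Tnnt2 in those controls, was 415.1 and 409.9 in Ad-GFP replicates 2 and 3, 39.2 to 119.1 in Ad-RNF128 and 73.4 in Ad-GFP replicate 1. Among 8 fibroblast markers, Pdgfra, Dcn, Lum and Tcf21 stayed at or below 2.86 CPM in every library. The summed CPM of the 8, almost all from collagens, was 38192 and 39798, 10251 to 11145, and 2956 in the same order. Of the remaining marker lists, 4 smooth muscle genes summed to 5240 and 5826 CPM, 5020 to 5590 and 4693 in that order. Endothelial genes stayed at or below 8.13 CPM in sum and leukocyte genes at or below 34.3, almost all of it Cd14, with Ptprc at 0 in 4 libraries. Mitochondrial genome transcripts took 4.91% and 5.35% of counts in Ad-GFP replicates 2 and 3, 3.08% to 3.32% in Ad-RNF128 and 0.951% in Ad-GFP replicate 1. In bulk RNA, fewer cells of a type and less RNA per cell cannot be told apart. The part of these shifts in the results below was not tested. Library totals ran from 16352843 to 21708973 counts.

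Against Ad-GFP replicates 2 and 3, 5 of the 10 genes rose and 1 fell in the libraries labelled Ad-RNF128. Bnip3, Sqstm1, Optn, Nbr1 and Gabarapl1 rose and Fundc1 fell, while Bnip3l, Pink1, Map1lc3a and Map1lc3b did not pass the test (edgeR quasi-likelihood F-test, Benjamini-Hochberg adjusted p under 0.05). The same test called 56.9% of all 13173 genes tested, 28.9% higher and 28% lower, so 6 of 10 is close to the share among all genes. Without Ad-RNF128 replicate 3, the library with the lowest cardiomyocyte marker levels, the same 5 genes rose and the same gene fell. This does not test the part of cell types. Marker sums in Ad-RNF128 replicates 1 and 2, at 119.1 and 88.9 CPM, were also below those of Ad-GFP replicates 2 and 3. That gap lay mostly in Tnnt2, at 57.4 and 42.3 CPM against 342.3 and 350.4 CPM, and other markers such as Myh6 and Actc1 did not show it. Of the 5 rises, 3 (in Bnip3, Sqstm1 and Optn) were at least 2-fold, a size that 8.37% of all tested genes reached among the rises called. The median log2 change of the 10 genes was 0.33, beside 0.01 over all genes tested. The labels do not say whether the replicates came from separate cultures or animals, so p-values measure only the spread between these libraries, which may be technical.

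**Figure D1:**
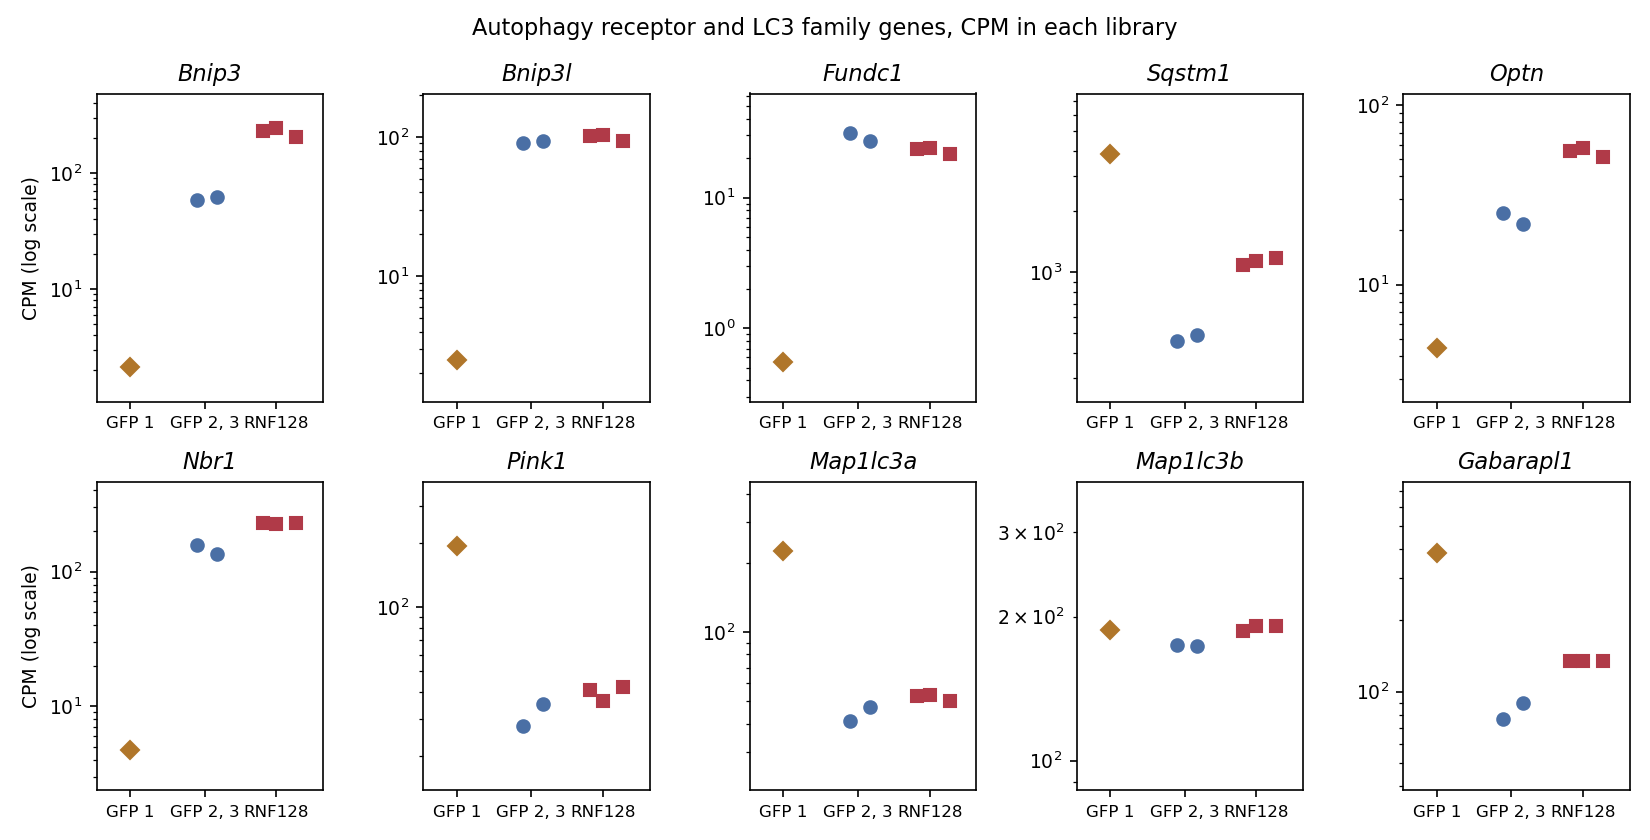
CPM on a log axis for each of the 10 genes, with Ad-GFP replicate 1 as a brown diamond, Ad-GFP replicates 2 and 3 as blue circles and the 3 Ad-RNF128 libraries as red squares. Each panel has its own scale. The brown diamond lies far below the blue circles for Bnip3, Bnip3l, Fundc1, Optn and Nbr1 and far above them for Sqstm1, Pink1, Map1lc3a and Gabarapl1.

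The mitochondrial receptors did not move together. BNIP3, BNIP3L (also called NIX) and FUNDC1 sit in the outer mitochondrial membrane and bind LC3 proteins directly, and BNIP3 is known for its induction by low oxygen. Bnip3 (ENSRNOG00000017243) was at 58.9 and 61.7 CPM in Ad-GFP replicates 2 and 3 and at 231.9, 242.0 and 203.8 CPM in Ad-RNF128 replicates 1 to 3. The groups did not overlap, and the 3 Ad-RNF128 libraries, at 226 ± 19.8 CPM (SD, n = 3), were 3.75 times the mean of those 2 controls. The edgeR log2 change was 1.75 ± 0.08 (SE), with an adjusted p of 2.06e-10. Leaving out any one of the 5 libraries gave 1.69 to 1.83. In Ad-GFP replicate 1 Bnip3 had 35 counts, or 2.14 CPM, which is 28.2 times below the other controls.

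Bnip3l (ENSRNOG00000009820), the closest relative of Bnip3, was at 91.4 and 94.3 CPM in Ad-GFP replicates 2 and 3 and at 101.5, 103.0 and 94.3 CPM in Ad-RNF128. The lowest Ad-RNF128 library was level with the higher control. Its edgeR log2 change was -0.05 (95% interval -0.20 to 0.09, adjusted p = 0.520), an interval that leaves out a rise of the size seen for Bnip3. The sign turned with library totals as the only scaling (0.10). Ad-GFP replicate 1 held 41 counts, or 2.51 CPM.

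Fundc1 (ENSRNOG00000003470) was at 31.2 and 27.3 CPM in Ad-GFP replicates 2 and 3, and at 23.3, 23.9 and 21.5 CPM in Ad-RNF128. All 3 Ad-RNF128 libraries lay below both controls. It fell by 0.50 ± 0.08 (SE) on the log2 scale (edgeR adjusted p = 0.000141), the single fall among the 10 genes. Ad-GFP replicate 1 held 9 counts, or 0.550 CPM, below every other library.

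A ratio of counts within a library is free of library scaling, so pairs of related genes were also compared this way. The pairs were chosen after values were seen. The ratio of Bnip3 to Bnip3l counts was 0.854, 0.644 and 0.654 in Ad-GFP replicates 1, 2 and 3, and 2.29, 2.35 and 2.16 in Ad-RNF128. The groups did not overlap even with Ad-GFP replicate 1, whose ratio rests on 35 and 41 counts and has a counting interval (95%, exact binomial) of 0.528 to 1.37. The ratio of Bnip3 to Fundc1 was 3.89, 1.88 and 2.26 in Ad-GFP and 9.94, 10.1 and 9.48 in Ad-RNF128. Its value in Ad-GFP replicate 1 has a counting interval of 1.83 to 9.20. For each of these 2 ratios the exact two-sided permutation p over all 6 libraries was 0.1, the smallest that 3 against 3 allows, and 0.3 adjusted over the 6 pairs examined.

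**Figure D2:**
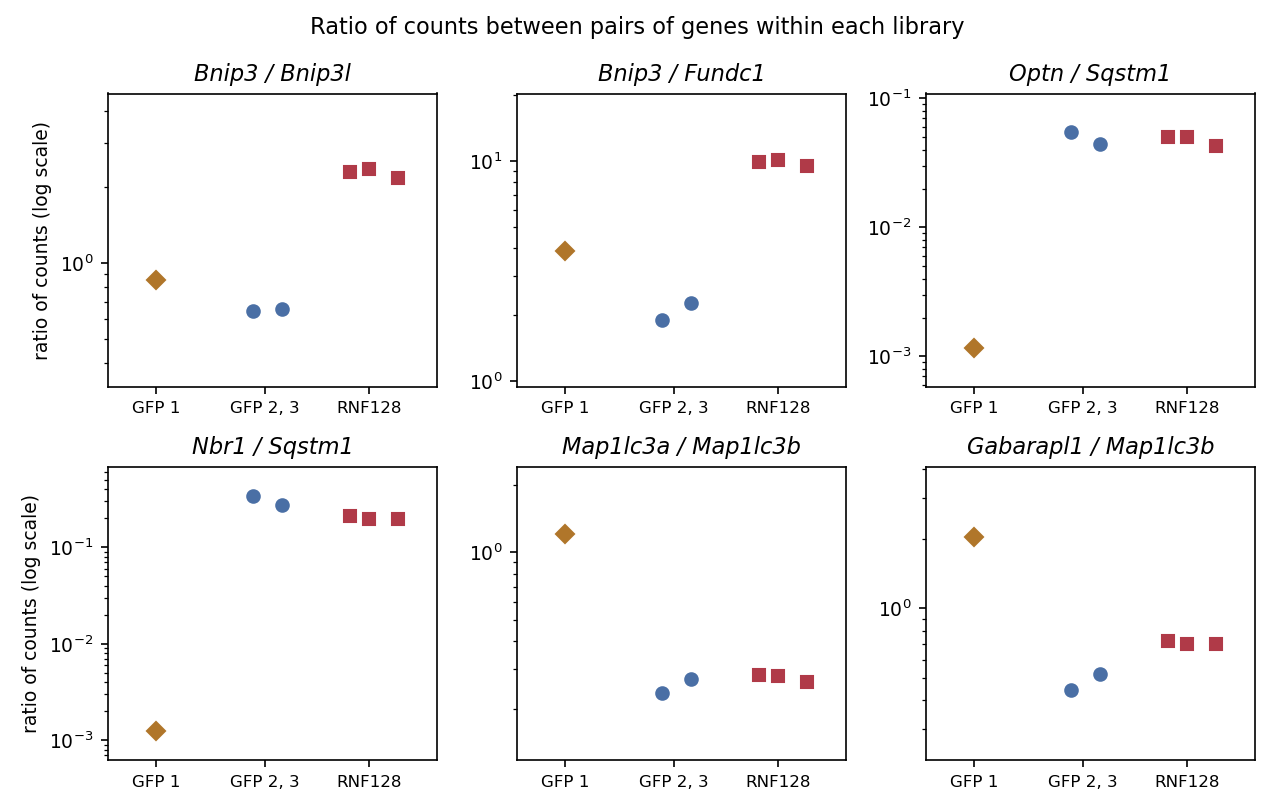
Ratio of counts between 2 genes within each library, on a log axis with its own scale per panel, for the 6 pairs examined. Brown diamonds are Ad-GFP replicate 1, blue circles Ad-GFP replicates 2 and 3, and red squares the 3 Ad-RNF128 libraries. The upper left and upper middle panels show Bnip3 higher relative to Bnip3l and to Fundc1 in Ad-RNF128 than in every Ad-GFP library, while in the other 4 panels Ad-GFP replicate 1 lies outside the range of all other libraries.

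Against Ad-GFP replicates 2 and 3, Sqstm1, Optn and Nbr1 all rose, beside 28.9% of all genes tested. A wider list of other ubiquitin-binding or cargo receptor genes went both ways. Of 5 tested, 2 rose, 2 fell and 1 did not pass, with a median log2 change of -0.14. That list is mixed, since it includes Stbd1, which rose, and Wdfy3, which fell, described below as a glycogen-binding receptor and a scaffold. p62 (the product of Sqstm1), optineurin (of Optn) and NBR1 bind ubiquitin chains on cargo and LC3 proteins on the membrane, and p62 also forms condensates that gather cargo. Sqstm1 (ENSRNOG00000003147) was at 459.1 and 492.2 CPM in Ad-GFP replicates 2 and 3 and at 1093, 1143 and 1183 CPM in Ad-RNF128. The groups were well apart, with a ratio of means of 2.40, a log2 change of 1.11 ± 0.07 (SE) and an edgeR adjusted p of 6.79e-09. Ad-GFP replicate 1 reversed this picture, since it held 62593 counts of Sqstm1, or 3828 CPM. That is 8.05 times the other controls and 3.36 times the mean of the Ad-RNF128 libraries.

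Optn (ENSRNOG00000017941) was at 25.04 and 21.66 CPM in Ad-GFP replicates 2 and 3, and at 55.2, 57.8 and 51.0 CPM in Ad-RNF128. Every Ad-RNF128 library was more than 2-fold above each of these controls. The log2 change was 1.08 ± 0.08 (SE, edgeR adjusted p = 6.02e-08), close in size to that of Sqstm1. Ad-GFP replicate 1 held 4.46 CPM, so the 3 Ad-RNF128 libraries lay above all 3 controls. The ratio of Optn to Sqstm1 counts was 0.0545 and 0.0440 in Ad-GFP replicates 2 and 3, and 0.0505, 0.0505 and 0.0431 in Ad-RNF128. These ranges overlap, whereas Ad-GFP replicate 1 had a ratio of 0.00117.

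Nbr1 (ENSRNOG00000020730) was at 156.4 and 135.5 CPM in Ad-GFP replicates 2 and 3, and at 228.7, 224.8 and 231.2 CPM in Ad-RNF128. The groups did not overlap, and the rise was 0.49 ± 0.07 (SE) on the log2 scale (edgeR adjusted p = 2.18e-05). The ratio of Nbr1 to Sqstm1 counts was 0.341 and 0.275 in those controls and 0.209, 0.197 and 0.195 in Ad-RNF128, lower in all 3. With Ad-GFP replicate 1, at 0.00125, the groups overlapped, and the exact permutation p over all 6 libraries was 1. Nbr1 itself had 78 counts, or 4.77 CPM, in Ad-GFP replicate 1.

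PINK1 is a kinase that gathers on damaged mitochondria and phosphorylates ubiquitin there, which draws in ubiquitin-binding receptors. Pink1 (ENSRNOG00000015385) was at 27.7 and 35.3 CPM in Ad-GFP replicates 2 and 3 and at 40.9, 36.3 and 42.3 CPM in Ad-RNF128. The lowest Ad-RNF128 library lay just above the higher control. Its log2 change was 0.18 (95% interval -0.05 to 0.40, edgeR adjusted p = 0.177). The call depended on single controls and on scaling: it was -0.01 without Ad-GFP replicate 2, 0.39 (edgeR adjusted p = 0.00711) without Ad-GFP replicate 3, and 0.33 (edgeR adjusted p = 0.0153) with library totals only. Ad-GFP replicate 1 held 3169 counts, or 193.8 CPM, 4.87 times the mean of Ad-RNF128.

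Of the 3 Atg8-family genes, Gabarapl1 rose and the 2 LC3 genes did not pass the test. Proteins of the LC3 branch and of the GABARAP branch are both joined to the autophagic membrane, and LC3B is the usual laboratory marker of it. Gabarapl1 (ENSRNOG00000053362) was at 76.9 and 89.8 CPM in Ad-GFP replicates 2 and 3 and at 134.5, 134.3 and 134.1 CPM in Ad-RNF128, where the libraries differed by less than 1 CPM. It rose by 0.53 ± 0.08 (SE) on the log2 scale (edgeR adjusted p = 4.70e-05). Ad-GFP replicate 1 held 381.8 CPM, 2.84 times the Ad-RNF128 mean.

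Map1lc3b (ENSRNOG00000017905) was at 174.2 and 173.4 CPM in Ad-GFP replicates 2 and 3 and at 187.0, 191.2 and 191.2 CPM in Ad-RNF128. All 3 were above both controls in CPM, but by a ratio of means of 1.09 only, and the scaled log2 change was -0.03 (95% interval -0.16 to 0.11, edgeR adjusted p = 0.730). With library totals only it was 0.13 (edgeR adjusted p = 0.0694). In CPM it was the single one of the 10 genes that Ad-GFP replicate 1 held near the other controls. Its 187.6 CPM there lay within the range of Ad-RNF128. The TMM scaling factor of that library was 0.470, beside 1.10 and 1.08 in Ad-GFP replicates 2 and 3. On the scale of the fit of all 6 libraries, Map1lc3b was thus higher in it than in those controls. Map1lc3a (ENSRNOG00000025443) was at 41.0 and 47.2 CPM in Ad-GFP replicates 2 and 3, and at 52.6, 53.4 and 50.4 CPM in Ad-RNF128. Its log2 change was 0.08 (95% interval -0.09 to 0.26, edgeR adjusted p = 0.405), -0.04 without Ad-GFP replicate 2 and 0.24 (edgeR adjusted p = 0.0174) with library totals only. Ad-GFP replicate 1 held 224.9 CPM.

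The scaling bears on these small changes. With library totals only, the median log2 change of all genes moved from 0.01 to 0.17, and the share of calls that were higher moved from 50.8% to 69.0%. Under that scaling 8 of the 10 genes passed, 7 of them higher, beside 7776 of all 13173 genes tested, 5367 of them higher. Relative to the median of all genes under that scaling, the log2 changes were 0.16 for Pink1, 0.070 for Map1lc3a, -0.042 for Map1lc3b and -0.068 for Bnip3l. Within-library ratios do not depend on scaling. Gabarapl1 to Map1lc3b was 0.442 and 0.518 in Ad-GFP replicates 2 and 3, and 0.719, 0.702 and 0.701 in Ad-RNF128, above both. Ad-GFP replicate 1, at 2.04, was above all of these, and the exact permutation p over all 6 libraries was 1. Map1lc3a to Map1lc3b was 0.236 and 0.272 in those controls and 0.282, 0.279 and 0.264 in Ad-RNF128, ranges that overlap, and 1.20 in Ad-GFP replicate 1.

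With all 6 libraries, none of the 10 genes passed the edgeR test, which called 0 of 12863 genes (0%), and 742 of all genes had an unadjusted p under 0.05. Of the 10 genes, Bnip3 (unadjusted p = 0.0455) and Optn (unadjusted p = 0.0220) did so, with edgeR adjusted p of 0.681 and 0.617. DESeq2, which called 386 of the 11205 genes it gave p-values, gave p-values for 6 of the 10 and called Optn alone (log2 change 1.21, DESeq2 adjusted p = 0.0447). Sqstm1, Pink1, Map1lc3a and Gabarapl1, all far higher in Ad-GFP replicate 1 than in the other controls, had no p-value. Limma-voom called none of the 10 and 14 of all genes. The edgeR log2 change was 2.27 ± 0.90 (SE) for Bnip3, 1.36 ± 0.44 for Optn and 1.01 ± 0.89 for Nbr1. It was -1.68 ± 1.23 for Sqstm1, -1.54 ± 1.02 for Gabarapl1, -2.26 ± 1.16 for Pink1 and -2.12 ± 1.08 for Map1lc3a. For the remaining 3 genes it was 0.48 ± 0.92 for Bnip3l, 0.035 ± 0.99 for Fundc1 and -0.62 ± 0.48 for Map1lc3b. Bnip3, Optn and Nbr1 were the 3 of the 10 genes whose CPM did not overlap between 3 Ad-RNF128 and 3 Ad-GFP libraries, all higher in Ad-RNF128. Among all genes tested 34% had such separation, 30.4% upwards and 3.59% downwards. Against Ad-GFP replicates 2 and 3 alone, 9 of the 10 did not overlap (8 higher, 1 lower), beside 72.3% of all genes (48.7% higher, 23.6% lower).

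**Figure D3:**
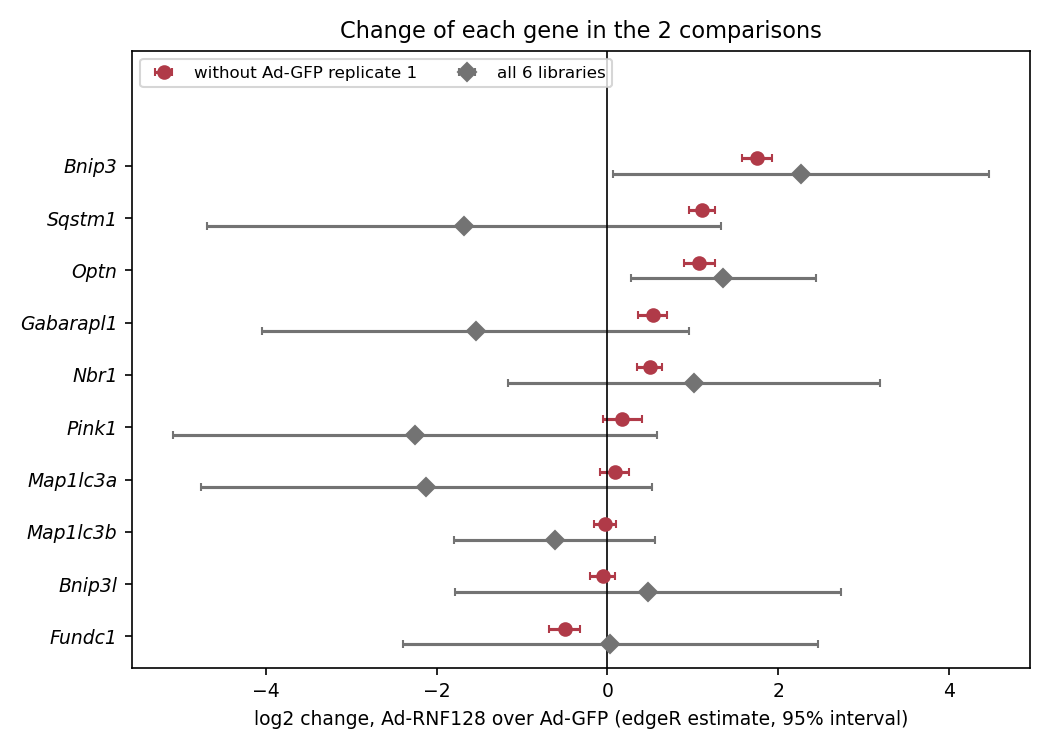
The edgeR log2 change of each gene in Ad-RNF128 over Ad-GFP with its 95% interval, without Ad-GFP replicate 1 (red circles) and with all 6 libraries (grey diamonds). Intervals are several times wider with all 6 libraries, and the estimates of Sqstm1, Gabarapl1, Pink1 and Map1lc3a lie on opposite sides of 0 in the 2 comparisons, as do those of Bnip3l and Fundc1.

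Ad-GFP replicate 1 did not shift these genes in one direction. Compared with the mean of Ad-GFP replicates 2 and 3, 5 genes were at least 2-fold lower in it (Fundc1, Bnip3l, Nbr1, Bnip3 and Optn, by log2 ratios of -5.73 to -2.39). Another 4 were at least 2-fold higher (Sqstm1, Pink1, Map1lc3a and Gabarapl1, by 2.19 to 3.01), and Map1lc3b was within 2-fold, at 0.11. These are ratios of CPM. The TMM factor of 0.470 for that library, which raises its values in the fit of all 6 libraries, is not applied. Among all genes tested 58.3% were at least 2-fold lower in that library and 19.1% at least 2-fold higher. The median absolute log2 ratio was 2.81 for the 10 genes and 2.41 for all genes tested. In the ubiquitin-binding group it held Sqstm1 8.05-fold higher and Nbr1 30.6-fold lower than the other controls, although all 3 receptor genes rose in Ad-RNF128 against those controls.

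**Figure D4:**
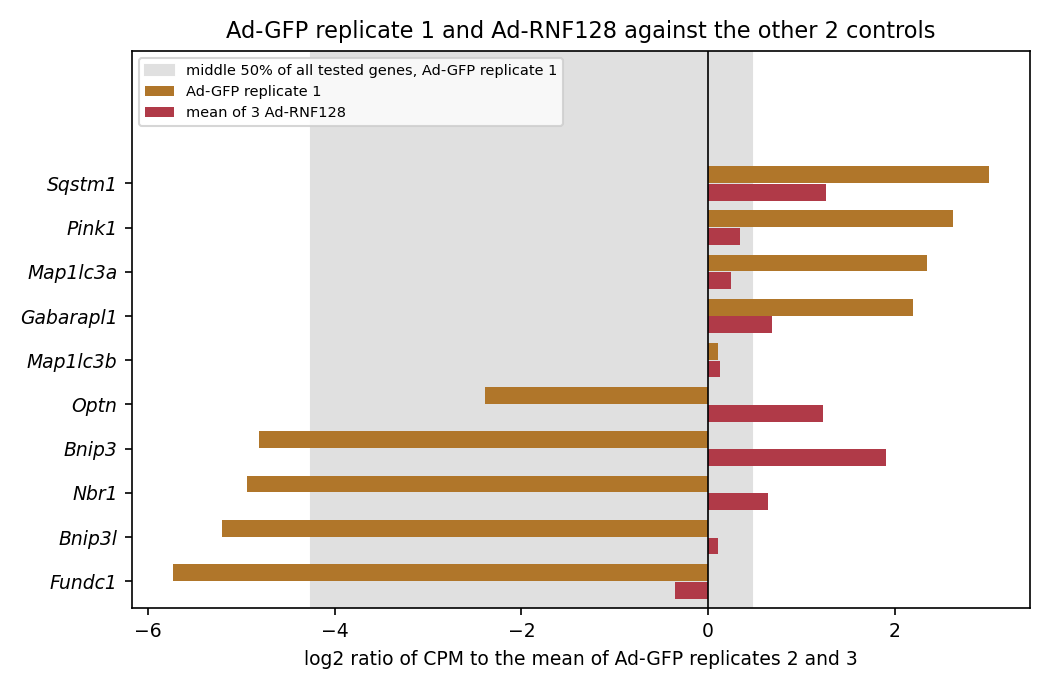
Log2 ratio of CPM to the mean of Ad-GFP replicates 2 and 3, for Ad-GFP replicate 1 (brown bars) and for the mean of the 3 Ad-RNF128 libraries (red bars). The grey band spans the middle 50% of all tested genes in Ad-GFP replicate 1, from -4.26 to 0.48. For Optn, Bnip3, Nbr1 and Bnip3l the brown and red bars point in opposite directions.

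Other autophagy genes were taken from lists chosen by role. Of 56 tested against Ad-GFP replicates 2 and 3, 19 rose and 10 fell, which is 51.8% beside the 56.9% of all genes, and their median log2 change was 0.05. Both other Atg8-family genes rose, Gabarap by 0.32 ± 0.06 (SE) and Gabarapl2 by 0.26 ± 0.07 on the log2 scale. All 3 genes of the GABARAP branch thus rose, beside 28.9% of all genes tested. The interval of Map1lc3a given above, -0.09 to 0.26, reached the change of Gabarapl2. A difference between the GABARAP and LC3 branches was not tested. With all 6 libraries the log2 changes of Gabarap and Gabarapl2 were -1.69 and -0.41, neither past the threshold. The largest rise was in Stbd1, a glycogen-binding receptor for GABARAPL1, at 1.48 ± 0.08 (SE), from 50.2 and 49.0 CPM to 149.3, 169.5 and 142.8 CPM. Next were Tex264, a receptor for the endoplasmic reticulum, at 0.82, Atg10, an enzyme of ATG12 conjugation, at 0.65, and Wipi2, which brings the conjugation machinery to the membrane, at 0.57. With all 6 libraries the log2 change was 0.48 for Stbd1 and 0.97 for Atg10, but -2.49 for Tex264 and -0.47 for Wipi2, which thus turned sign, and none of the 4 passed the threshold.

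The largest falls among the listed genes were in Ulk2, an initiating kinase, with a log2 change of -0.66, and Wdfy3, a scaffold for protein aggregates, at -0.62. Wipi1, a phosphoinositide-binding protein, followed at -0.47, and Atg2a, a lipid transfer protein, at -0.43. With all 6 libraries these 4 log2 changes were -0.11 for Ulk2, -0.095 for Wdfy3, -0.097 for Wipi1 and -0.95 for Atg2a, none of them past the threshold. By role and without Ad-GFP replicate 1, 2 of 5 genes of the ULK initiation complex rose and 2 fell. Of 6 genes of the VPS34 complex, which makes the lipid signal for membrane growth, 1 fell and 5 did not pass. Among 5 membrane supply genes 2 rose and 3 fell, and of 9 Atg8 conjugation genes 3 rose and 1 fell. Of 5 other mitophagy receptor genes 1 rose, of 5 receptor genes for the endoplasmic reticulum 1 rose and 2 fell, and of 9 genes that control ubiquitin on mitochondria 4 rose. Of 6 fusion genes 2 rose and 0 fell. Of the 5 other ubiquitin-binding or cargo receptor genes 2 rose (Stbd1 among them) and 2 fell (Wdfy3 among them), and Calcoco1, named after its values were seen, counts both there and among the receptors for the endoplasmic reticulum. Its log2 change was -0.22 (edgeR adjusted p = 0.0185), and -1.35 with all 6 libraries. Ad-GFP replicate 1 stood apart for these genes too, holding Tex264 at 729.7 CPM and Ulk2 at 0.367 CPM. With all 6 libraries 0 of the 56 passed.

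**Figure D5:**
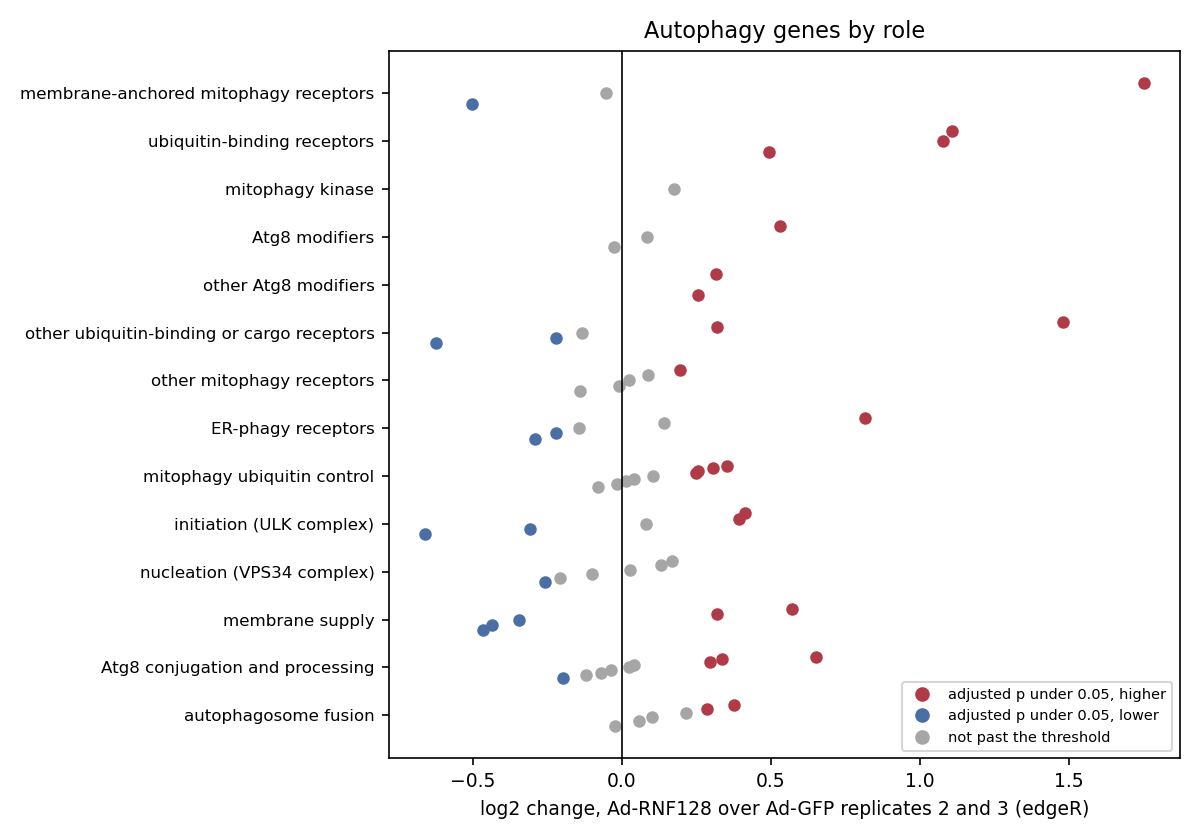
The edgeR log2 change of each tested autophagy gene in Ad-RNF128 over Ad-GFP replicates 2 and 3, 1 point per gene, grouped by role, with the genes described first in the upper 4 rows. Red points rose, blue points fell and grey points did not pass the threshold. The 3 ubiquitin-binding receptors in the second row lie between 0.49 and 1.11, and most points in the lower rows lie between -0.66 and 0.65.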

How the data were processed

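Each library came with a deposited table of read counts by gene. Per the submitters' processing notes HISAT2, HTSeq 0.13.5 and the build mRatBN7.2 were used. The sources used here do not give the strand setting, so reads of overlapping or antisense genes may be mixed. One deposited value, in Ad-GFP replicate 1, is not whole (344.5), for a reason the sources used here do not give, so that column was handled as one of expected counts and rounded. Of the 18077 rows, 106 repeat an ID and were kept. Levels were not compared between genes, since no transcript lengths were used.

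CPM was computed as counts per 1000000 counts in the library. Changes were tested with edgeR 4.0.16 (R 4.3.3): filterByExpr, TMM scaling, quasi-likelihood F-test, Benjamini-Hochberg adjustment over all genes tested, threshold 0.05. The ± of a log2 change is an SE derived from the change and its F statistic. Alternatives were median-of-ratios scaling, library totals only, DESeq2 1.42.0, limma-voom (limma 3.58.1), no low-count filter, a filter of 10 counts in 3 libraries and mean CPM 1, a block for the replicate number, and leaving out each library. Over the 10 genes the SE of the edgeR log2 change was 0.062 to 0.107 without Ad-GFP replicate 1. With all 6 libraries it was 0.44 to 1.23, so a lack of calls there does not show a lack of change. Counting intervals are 95% and cover counting error only. The members and lists were chosen with earlier results of these data known. All 10 members are named, then the 4 largest rises and 4 largest falls among the other autophagy genes past the threshold with a mean CPM of at least 5, and Gabarap and Gabarapl2. The rule also lists 1 further gene by name, which is not reported here. Of 61 other listed genes 57 were found by name and 56 passed the low-count filter. No reads or proteins were used, and the only coordinates are those of the promoters in the RefSeq table.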

Additional observations from a re-analysis of the deposited data

How the results depend on the processing

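Without Ad-GFP replicate 1 6 of the 10 genes were called (5 higher, 1 lower), and 6 to 8 under the 12 alternatives. The main fit called 56.9% of all 13173 genes tested, close to the share of the 10. Library totals only, which gave the 8, called 7776 of all genes. Leaving out each of the 5 libraries gave 6 to 7 calls among the 10 genes, 6444 to 7125 among all genes and 23 to 27 among the other autophagy genes. Bnip3, Sqstm1, Optn, Nbr1, Gabarapl1 and Fundc1 kept direction and side of the threshold under all 12. The sign turned with library totals only for Bnip3l (0.10) and Map1lc3b (0.13), without Ad-GFP replicate 2 for Pink1 (-0.0093) and Map1lc3a (-0.038), and without Ad-RNF128 replicate 1 for Map1lc3b (0.0014). Leaving out each library gave -0.0093 to 0.39 for Pink1, -0.038 to 0.22 for Map1lc3a and -0.051 to 0.0014 for Map1lc3b. With all 6 libraries, library totals only gave 8 calls among all genes, DESeq2 386 and limma-voom 14, where TMM with edgeR gave 0. DESeq2 made 1 call among the 10 genes and gave Sqstm1, Pink1, Map1lc3a and Gabarapl1 no p-value. Leaving out each library gave 0 to 7501 calls among all genes and 0 to 6 among the 10, and the highest of each came without Ad-GFP replicate 1. Without it 6 log2 changes turned sign, and leaving out each library in turn gave -0.054 to 0.90 for Bnip3l, -0.50 to 0.49 for Fundc1, -2.18 to 1.11 for Sqstm1, -2.73 to 0.18 for Pink1, -2.58 to 0.083 for Map1lc3a and -1.99 to 0.53 for Gabarapl1. Fundc1 also turned with median-of-ratios factors (-0.0056) and DESeq2 (-0.0056), and Map1lc3b with library totals only (0.090). The cause of these changes was not tested. Correlations of deviations between same-numbered libraries were -0.17, 0.01 and -0.13 for numbers 1, 2 and 3 over all 6 libraries. There Ad-GFP replicate 1 weighs on the control mean. Without it they were 0.059 for number 2 and 0.12 for number 3, but the deviations of 2 controls mirror each other. These values therefore cannot show whether same-numbered libraries were paired. The replicate block gave 7795 calls among all genes, 6 among the 10 and 34 among the other autophagy genes without Ad-GFP replicate 1, and 0 and 0 with all 6 libraries. With 2 control libraries the spread is pooled over both groups, and where 1 control is left it is assumed to vary like the Ad-RNF128 libraries. At the depth of Ad-GFP replicate 1, Fundc1 rests on 9 counts.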
